A study of Gallus gallus with 4 samples.

Results

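VDAC1 and VDAC2 encode voltage-dependent anion channels, the pores of the outer mitochondrial membrane. They are 2 of 3494 named genes that had a value on all 4 microarrays of broiler breast muscle. They were taken by their symbol in the platform table, which gave each of them 1 feature, and both features had a value on every array. Both genes had been picked with their ratios on these arrays known, so their own values are a description and carry no test.

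VDAC channels are beta-barrel proteins that let ATP, ADP, phosphate, pyruvate and other small metabolites cross the outer membrane. In mammals, hexokinase docks on VDAC1 and so meets ATP as it leaves the mitochondrion, and VDAC2 binds the cell death protein BAK. In muscle the channels lie between the ATP synthase inside and the cytosolic creatine kinase and contractile systems outside. No VDAC sequence was analysed here.

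Each array compared muscle RNA from the high feed efficiency side (channel 2, Cy5 dye) with muscle RNA from the low feed efficiency side (channel 1, Cy3 dye). All birds were males of a single broiler line, caged and fed individually without treatment. They had one corn and soy diet with 20.5% protein and 3280 kcal per kg. Gain and feed intake were recorded between 6 and 7 weeks of age. The labels speak of 4 birds of each kind, and pooling of RNA is neither stated nor denied in them. Efficiency was the birds' own phenotype and not an allele or an agent, and 0 arrays had the dyes swapped, so an effect of the dye cannot be told apart from one of the group.

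Values are log2 ratios of the dyes with each array's median at 0, given as mean ± SD (n = 4 arrays). A positive value likely means more transcript in high-efficiency muscle, because such ratios usually divide channel 2 by channel 1 and the labels put high efficiency in channel 2. If the ratio was taken the other way, every sign below turns around. The ratios hold no level of a gene, so neither the tissue nor the abundance of a transcript could be checked, and the number of arrays limits the precision. In whole muscle, fewer cells of a type and less RNA per cell cannot be told apart. Between 39376 and 40278 features were measured per array.

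VDAC1, the isoform known in mammals as the main hexokinase site, had log2 ratios of 0.55, 0.69, 0.60 and 0.60 on arrays 1 to 4. VDAC2, the BAK-binding isoform, had 0.59, 0.62, 0.59 and 0.57. Every one of these 8 values lay above the array median, and array 2 was the highest for both genes. The means were 0.61 ± 0.06 for VDAC1 and 0.59 ± 0.02 for VDAC2, or 1.52-fold and 1.51-fold in high over low efficiency. Across arrays the fold ran between 1.46 and 1.61 for VDAC1 and between 1.48 and 1.54 for VDAC2.

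Placing another point at 0 changed these values. As deposited, VDAC1 stood at 0.36, 0.20, 0.02 and 0.09 and VDAC2 at 0.40, 0.14, 0.02 and 0.06, with means of 0.17 ± 0.15 and 0.15 ± 0.17. All 8 values were still above 0, but on arrays 3 and 4 they were close to equal signal in both dyes. With each array centred instead on its steadiest features, the 10% with the smallest SD, the means were 0.45 for VDAC1 and 0.43 for VDAC2. The median over the 3494 genes was 0.01 under median centring, -0.15 when centred on the steadiest features and -0.43 as deposited, so a ratio is relative to that choice.

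A feature with equal signal in both dyes, as deposited, would stand at 0.19, 0.49, 0.58 and 0.52 once the array median is at 0, a mean of 0.44 ± 0.17. VDAC1 and VDAC2 stood above that mark on all 4 arrays, by most on array 1 and by least on array 3. Spots saturated in both dyes would sit at the mark itself, and 160 features within 0.005 of it on at least 3 arrays had been set aside. A spot near saturation in 1 dye cannot be seen in these ratios, and its part in the VDAC values was not tested. The SD of VDAC2 was 0.02 with the array median at 0 and 0.17 as deposited, so its deposited values moved with the array medians.

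**Figure D1:**
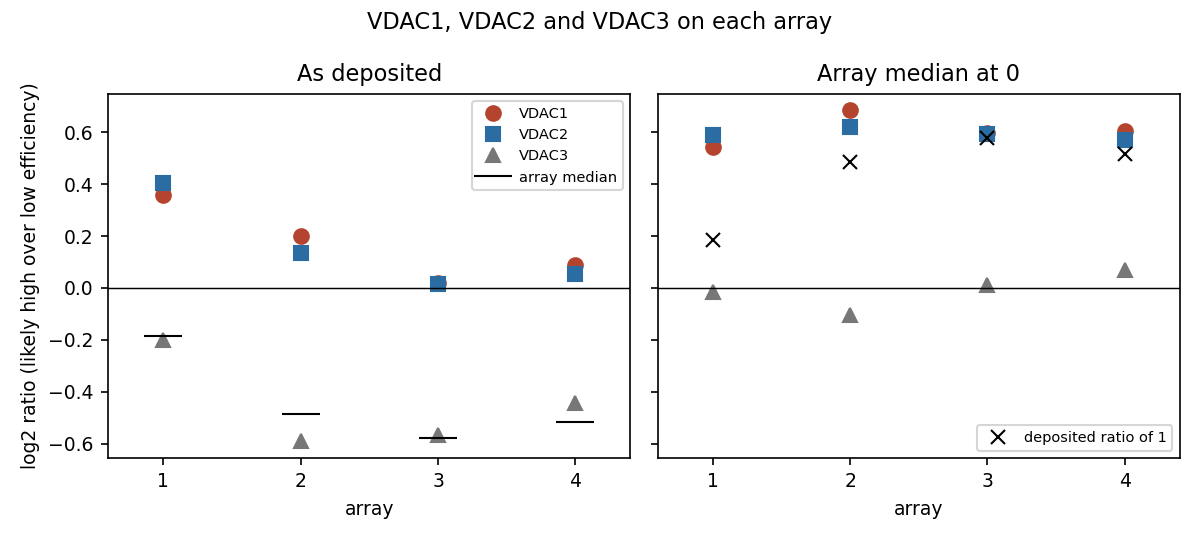
Log2 ratio (vertical axis, likely high over low efficiency) of VDAC1, VDAC2 and VDAC3 on arrays 1 to 4 (horizontal axis), as deposited with each array's median as a bar (left), and with the array median at 0 and the place of a deposited ratio of 1 as a cross (right). VDAC1 and VDAC2 lie between 0.55 and 0.69 on the right and between 0.02 and 0.40 on the left, and VDAC3 lies close to the array median.

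VDAC1 and VDAC2 differed little from each other. VDAC2 minus VDAC1 was 0.04, -0.07, -0.01 and -0.03 on arrays 1 to 4. VDAC2 was the higher on array 1 and VDAC1 on the other 3, and the mean difference of -0.02 ± 0.05 was smaller than its spread. This difference is taken within an array and is the same whichever point is set to 0.

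VDAC3, the remaining channel of the family, stood apart from both. Its ratios were -0.02, -0.11, 0.01 and 0.07, on both sides of the array median. The mean of -0.01 ± 0.07 did not pass the test across genes (limma, Benjamini-Hochberg adjusted p = 0.903), but as deposited, where all genes are lower, VDAC3 stood at -0.45 and passed (adjusted p = 0.0418). Within each array VDAC1 exceeded VDAC3 by 0.56, 0.79, 0.59 and 0.53, a mean of 0.62 ± 0.12, and VDAC2 exceeded it by 0.61, 0.73, 0.58 and 0.50, a mean of 0.60 ± 0.09. On no array did VDAC3 reach either of the others. These gaps do not depend on the centring, and they carry no test because VDAC1 and VDAC2 were chosen for their high ratios. Probe sequences were not used here, so cross-hybridization between the 3 related transcripts was not tested.

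Among all 3494 genes, VDAC1 ranked 67th and VDAC2 ranked 73rd by mean ratio, with 1.89% and 2.06% of genes above them. Single arrays placed VDAC1 at 304, 106, 194 and 178 and VDAC2 at 229, 137, 197 and 204, so both ranked higher by their mean than on any one array. The SD of VDAC2 was the 23rd smallest of all genes and that of VDAC1 the 385th smallest, against a median SD of 0.17. Of the 73 genes with a mean at least that of VDAC2, itself included, 2 had an SD no larger than that of VDAC2 and 13 no larger than that of VDAC1.

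**Figure D2:**
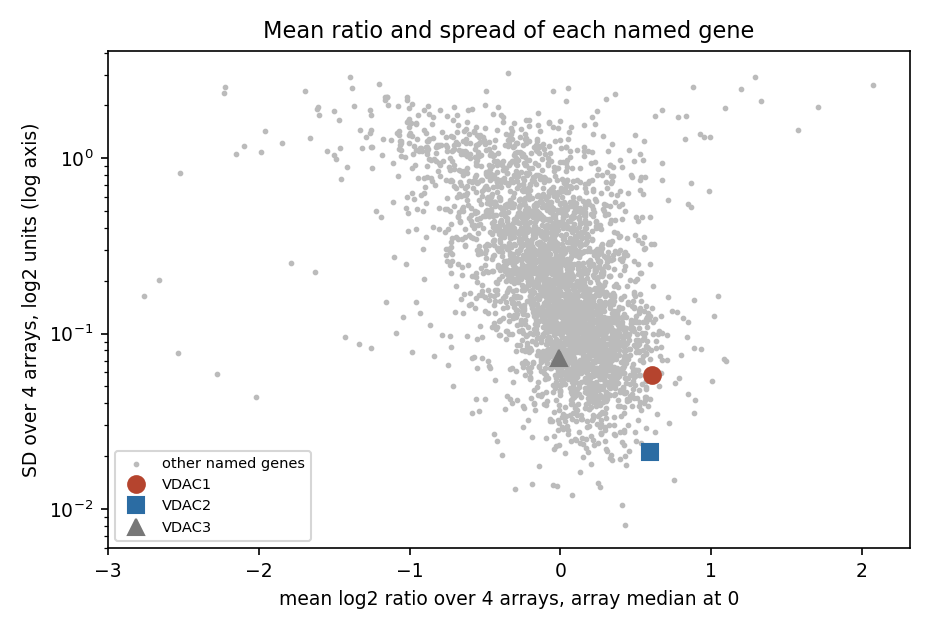
Mean log2 ratio over 4 arrays with the array median at 0 (horizontal axis) and SD over the arrays in log2 units (vertical log axis) for each of 3494 named genes. VDAC1 at 0.61 and VDAC2 at 0.59 lie at the right edge of the dense part with SDs of 0.06 and 0.02, and VDAC3 lies near 0.

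The genes with ratios most like those of VDAC1 over the 4 arrays, by Euclidean distance among 3493 genes, were MCTS1, a translation re-initiation factor (distance 0.0716), and UGP2, which makes UDP-glucose for glycogen (0.0829). VDAC2 itself was next (0.0857), followed by C1QBP, a mitochondrial matrix protein (0.0967), and HNRNPH1, a splicing regulator (0.102). For VDAC2 the nearest were HNRNPH1 (0.052) and RPS27L, a ribosomal protein-like gene (0.0667). POSTN, the matrix protein periostin, followed (0.0702), then the retinol dehydrogenase gene RDH14 (0.0815) and the mitochondrial histidyl-tRNA synthetase gene HARS2 (0.0849). VDAC1 came next, as the 6th nearest. VDAC3 was 1609th for VDAC1 and 1601st for VDAC2. With 4 arrays this likeness mainly reflects a like mean and a small spread.

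Genes around the channels were read against all 3494 genes, of which 18.5% were called higher and 6.1% lower by limma at an adjusted p under 0.05, or 24.6% in all (648 higher and 213 lower). When centred on the steadiest features the calls were 241 higher and 414 lower, and as deposited 9 higher and 1142 lower. Calls also changed when an array was left out, which leaves fewer arrays for the test. Limma called 0 genes higher and 4 lower without array 2, and 0 higher and 5 lower without array 3. For 19 respiratory chain genes the higher calls went from 13 to 0 in both fits. Their median ratio stood at 0.28 in both, against 0.26 with all 4 arrays. At an unadjusted p under 0.05 there were 727 and 724 higher genes in those fits. With all 4 arrays 914 of the 3494 genes were higher and 407 lower at that cut. The unadjusted counts below are to be read beside these. Without array 1 limma called 299 higher and 105 lower, and without array 4 it called 144 and 54. Every higher call named below was therefore lost without array 2 and also without array 3. So were the lower calls named below other than those of CSRP3, MYH15 and PLN. The lower calls of the slow and cardiac list were then 3 and 4, and those of the leukocyte list 0 and 0 (7 and 5 at an unadjusted p under 0.05).

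Of the 18 genes listed for VDAC3 and protein import, 4 were on the platform and 3 were measured. SAMM50, the core of the machine that inserts beta-barrels such as VDAC, stood at 0.13, 0.21, 0.27 and 0.09, a mean of 0.17 ± 0.08 (adjusted p = 0.0831). MTCH2, an outer membrane insertase, stood at -0.03 ± 0.17 (adjusted p = 0.814). By limma 0 of the 3 were called in either direction, against 24.6% of all genes, which says little for so few genes. At an unadjusted p under 0.05, 1 was higher, and the list median was -0.01. All 3 lay below VDAC1 and VDAC2 on every array, as did 82.7% of all other genes, so this is no result about the list.

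Among proteins that dock on the channels or work beside them, 5 of 24 listed genes were measured, with a median of 0.18. By limma 3 were called higher and 1 lower (4 and 1 at an unadjusted p under 0.05). That is 60% and 20%, against 18.5% and 6.1% of all genes, but from only 5 genes. When centred on the steadiest features 1 was called higher and 1 lower, and as deposited 0 and 1. HK1, the hexokinase that docks on the outer membrane, had ratios of 0.54, 0.50, 0.51 and 0.42, a mean of 0.49 ± 0.05 (adjusted p = 0.00892). It was the closest of the 5 to the channels: VDAC1 exceeded it by 0.11 ± 0.09, with a gap of 0.00 on array 1, and VDAC2 by 0.10 ± 0.05. HK1 was also called when centred on the steadiest features (0.33, adjusted p = 0.0199) and not as deposited (0.05, adjusted p = 0.733). HK2, another hexokinase of the list, was on the platform but lacked a usable value on some of the 4 arrays and was left out.

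CKMT1B, a ubiquitous mitochondrial creatine kinase of the intermembrane space named CKMT1A on the platform, fell. Its ratios were -0.61, -0.85, -0.73 and -0.73, all well below the array median and below those of the channels. The mean of -0.73 ± 0.10 was 1.66-fold lower in high-efficiency muscle (adjusted p = 0.00791), and it was called lower at each of the 3 zero points (adjusted p = 0.00669 when centred on the steadiest features and 0.0177 as deposited). Without array 2 it stood at -0.69 (adjusted p = 0.0718) and without array 3 at -0.73 (adjusted p = 0.0697). VDAC1 exceeded CKMT1B by 1.34 ± 0.15 and VDAC2 by 1.32 ± 0.11 within arrays, the widest gaps among the genes compared in this way.

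HSPA9, a chaperone that tethers VDAC to the calcium channel of the endoplasmic reticulum, rose slightly with the array median at 0 (0.20 ± 0.05, adjusted p = 0.0424). SLC25A6, an ADP/ATP carrier of the inner membrane, was called too (0.18 ± 0.04, adjusted p = 0.0479). Both were negative as deposited, at -0.24 and -0.26, and passed at neither other zero point. With values on at least 3 arrays neither was called (adjusted p = 0.0588 for HSPA9 and 0.0657 for SLC25A6) and the list held 1 higher of 7. SLC25A6 was also not called after quantile normalization (0.0532) or with robust moderation (0.0532). LETM1, an inner membrane ion exchanger, stood at 0.16 ± 0.08 (adjusted p = 0.0995). SLC25A4 and CKMT2, the carrier and the creatine kinase typical of muscle, had features at a deposited ratio of 1 and were not measured here.

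**Figure D3:**
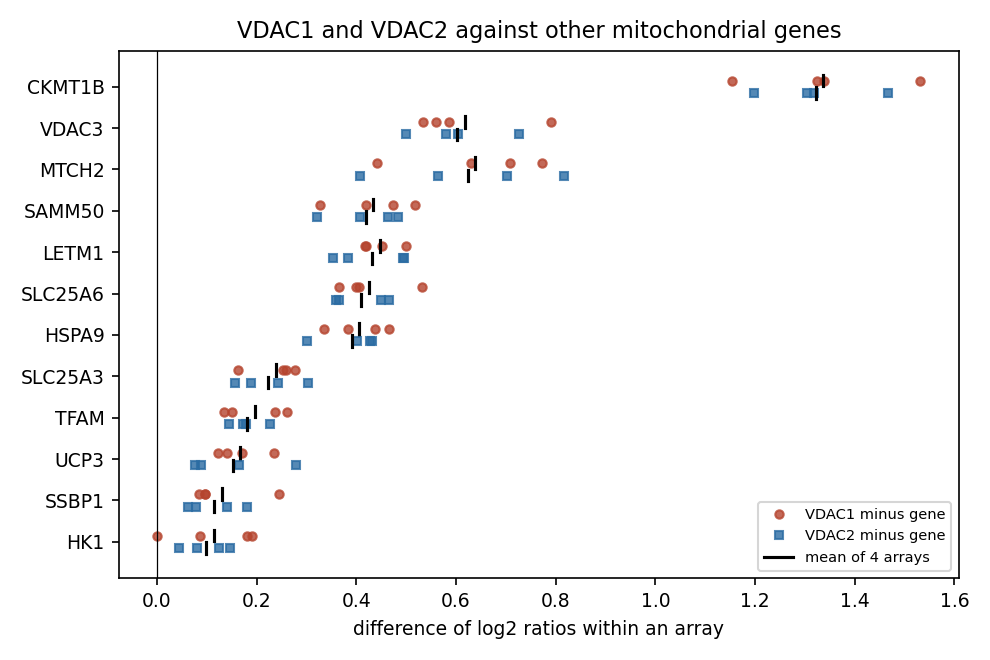
Difference between the log2 ratio of VDAC1 or VDAC2 and that of 12 other mitochondrial genes within each of 4 arrays (horizontal axis, points, with the mean as a black bar), by gene (vertical axis). All differences are above 0, from close to 0 for HK1 to between 1.15 and 1.53 for CKMT1B, and centring does not change them. Of all other named genes, 82.7% lay below both channels on every array.

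The BCL2 family decides whether the outer membrane is breached in cell death, and its members meet VDAC there. Of 28 listed family and release genes 8 were measured, 3 were called higher and 0 lower by limma, with a median of 0.26 and 5 higher and 0 lower at an unadjusted p under 0.05. The higher calls were 37.5% of the list, against 18.5% of all genes. BCL2L1, the anti-apoptotic BCL-XL gene, stood at 0.32 ± 0.08 (adjusted p = 0.0202). BNIP3, a mitophagy receptor, stood at 0.35 ± 0.10 (adjusted p = 0.022) and the anti-apoptotic BCL2 at 0.34 ± 0.15 (adjusted p = 0.0412, and 0.0547 with values on at least 3 arrays). These 3 were negative as deposited, and none of the list was called when centred on the steadiest features. BCL2L13, a further mitophagy receptor, stood at 0.23 ± 0.12 (adjusted p = 0.0718). BCL2A1 ran from -0.57 to 1.11 and BID from -0.52 to 1.11 between arrays, with SDs of 0.81 and 0.76. AIFM1 stood at 0.24 ± 0.13 and CASP9 at 0.06 ± 0.15, neither of them called with the array median at 0. As deposited, where all genes are lower, CASP9 stood at -0.39 and passed (adjusted p = 0.0418), the 1 lower call of the list.

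Of 6 measured fusion, fission and mitophagy genes limma called 0, against 24.6% of all genes called in either direction. At an unadjusted p under 0.05 there were 0 higher and 1 lower, and the list median was 0.04. FUNDC2, an outer membrane protein, stood at -0.34 ± 0.27 (adjusted p = 0.12), DNM1L, the fission GTPase, at 0.14 ± 0.13 (0.209) and RHOT1, which links mitochondria to motors, at 0.07 ± 0.04 (0.282). USP30, a deubiquitinase that opposes mitophagy, stood at -0.49 ± 0.84 and GDAP1 at 0.05 ± 0.64, the widest spreads of the 6. Of 4 measured outer membrane enzymes limma called 0, also at an unadjusted p under 0.05, with a median of -0.05. Both lists are small, so 0 calls is no result about either. ACSL1, which activates fatty acids, stood at -0.16 ± 0.13 (adjusted p = 0.175), the monoamine oxidase MAOB at -0.35 ± 0.38 (0.206) and ACSL4 at 0.08 ± 0.31 (0.711). CPT1A, which passes fatty acids on to carnitine, ran from -0.89 to 1.51 between arrays. When centred on the steadiest features, 1 of the 4 enzymes was called lower.

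**Figure D4:**
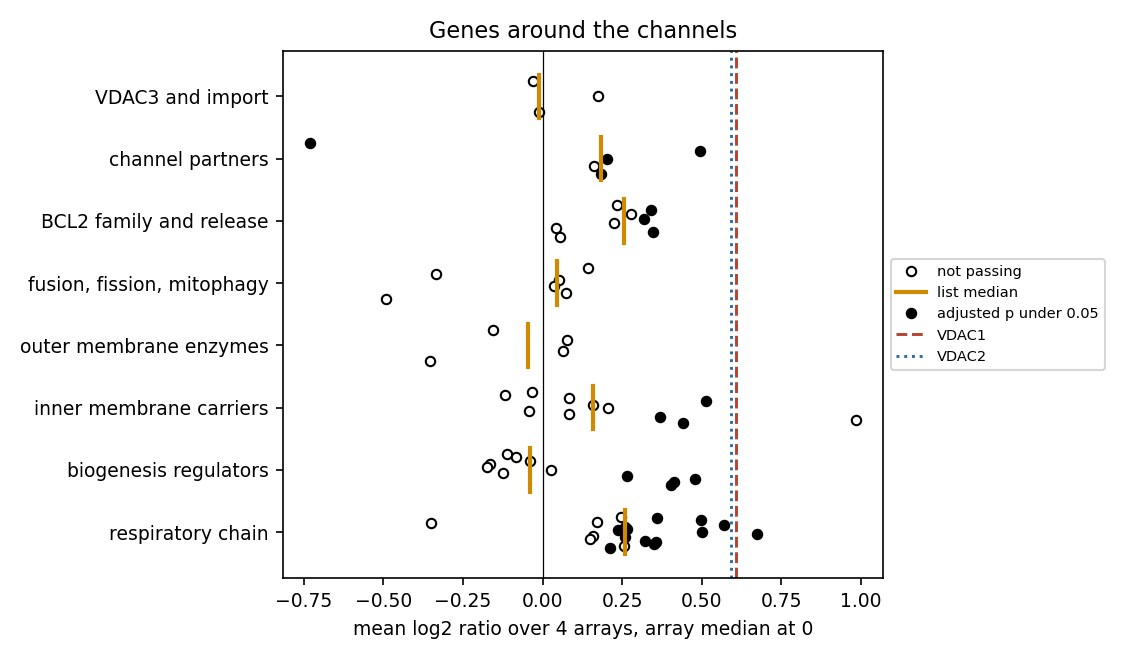
Mean log2 ratio over 4 arrays with the array median at 0 (horizontal axis) of every measured gene in 8 lists (vertical axis), filled where limma's adjusted p was under 0.05, with list medians as bars and VDAC1 and VDAC2 as vertical lines. All filled points but CKMT1B lie above 0 at this zero point, none of them was called higher as deposited, and NDUFB10 and SLC25A37 are the genes to the right of both lines.

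Inner membrane carriers move the metabolites that pass through VDAC. By limma 3 of 11 measured carriers were called higher, or 27.3%, against 18.5% of all genes. The lower calls were 0 (6 higher and 0 lower at an unadjusted p under 0.05), and the list had a median of 0.16. The list also counts SLC25A17, a carrier of peroxisomes, whose mean of 0.16 ± 0.05 is that median. The avian uncoupling protein UCP3 stood at 0.44 ± 0.10 (adjusted p = 0.0143) and at 0.00 as deposited. SLC25A3, the phosphate carrier, stood at 0.37 ± 0.08 (adjusted p = 0.0157) and was negative as deposited, and SLC25A16 stood at 0.51 ± 0.25 (adjusted p = 0.0413, but 0.0954 when centred on the steadiest features and 0.0544 with values on at least 3 arrays). That centring left 1 carrier called higher, and as deposited 0 were higher and 2 lower. With values on at least 3 arrays 2 of the 11 were called higher. SLC25A37, an iron importer, was the carrier above VDAC1 and VDAC2 in mean ratio, at 1.06, 0.32, 0.72 and 1.85, and did not pass (0.98 ± 0.65, adjusted p = 0.0718).

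Among regulators of mitochondrial biogenesis, 4 of 11 measured genes were called higher and 0 lower by limma (4 and 1 at an unadjusted p under 0.05), with a median of -0.04. The higher calls were 36.4% of the list, against 18.5% of all genes. SSBP1 and TFAM bind mitochondrial DNA and TFB2M starts its transcription. They stood at 0.48 ± 0.04 (adjusted p = 0.00892), 0.41 ± 0.05 (0.0105) and 0.40 ± 0.06 (0.0118), and TFAM and TFB2M were negative as deposited. The counts were 3 higher and 1 lower when centred on the steadiest features, and 0 and 5 as deposited. VDAC1 exceeded SSBP1 by 0.13 ± 0.08 and TFAM by 0.20 ± 0.06. All 11 genes lay below both channels on every array, as did 82.7% of all other genes, so this is no result about the list. PPARGC1A, the biogenesis coactivator, was on the platform but lacked a value on some of the 4 arrays and was left out. With values on at least 3 arrays the list held 12 genes with a median of -0.0065, and 4 were called higher and 0 lower.

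Of the 8 lists, the respiratory chain had the most genes measured and the most called higher. By share, 68.4% of it was called higher, against 18.5% of all genes and 60% of the channel partners, a share that rests on only 5 genes. Of 19 measured subunits and assembly genes 13 were called higher and 0 lower by limma (15 and 0 at an unadjusted p under 0.05), with a median of 0.26. The count was 5 higher when centred on the steadiest features and 0 as deposited, where the median was -0.18. It was 11 with robust moderation and 9 of 21 genes with values on at least 3 arrays. Without array 1 it was 6 and without array 4 it was 3. NDUFB10 of complex I stood at 0.67 ± 0.07 (adjusted p = 0.00791) and was the member above both channels in mean ratio. COX7A2L, which helps join respiratory complexes, stood at 0.57 ± 0.05 (adjusted p = 0.00797) and ATP5J2 of ATP synthase at 0.50 ± 0.03 (adjusted p = 0.00828). COX6C had the widest spread of the 19, from -4.21 to 2.81 between arrays, and the only negative mean (-0.35 ± 3.05, adjusted p = 0.863). Within arrays VDAC1 exceeded the chain's median by 0.18, 0.38, 0.34 and 0.35 and VDAC2 by 0.22, 0.31, 0.33 and 0.32. On every array 14 of the 19 lay below both channels, or 73.7%, against 82.7% of all other genes.

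Markers of fibre type and of other cells were read beside the 18.5% of all genes called higher and 6.1% called lower. By share, 81.25% of the slow and cardiac list, 50% of the fast list and 33.3% of the leukocyte list were called lower. The fibroblast list had 10.5% higher and 15.8% lower, and the endothelial list 0% and 11.1%. Both had a smaller share higher and a larger share lower than all genes, from few calls. The adipocyte, nerve and erythroid lists had 4 measured genes each and the fast list 6, so few that a share says little. Of 16 measured slow and cardiac muscle genes 13 fell and 0 rose by limma (14 and 1 at an unadjusted p under 0.05), with a median of -1.10 and array medians between -1.19 and -1.06. CSRP3, the muscle LIM protein, stood at -2.53 ± 0.08 (adjusted p = 0.000717), with MYH15, a slow and ventricular myosin in chicken, at -2.28 ± 0.06 and phospholamban, PLN, at -2.02 ± 0.04, both at the same adjusted p. The myosin gene MYH7 of the same list went the other way and did not pass (0.72 ± 0.58, adjusted p = 0.115). It ran from -0.055 on array 1 to 1.31 on array 3. When features at a deposited ratio of 1 were kept, the slow and cardiac list held 2 higher and 13 lower of 18, with a median of -0.77. Of 6 fast muscle genes 1 rose and 3 fell, with TNNT3, fast troponin T, at 0.41 ± 0.07 (adjusted p = 0.0122) but -0.03 as deposited, PVALB, parvalbumin, at -0.96 ± 0.15 (0.00791) and PFKM at -0.73 ± 0.31 (0.0296). PFKM was not called when features at a deposited ratio of 1 were kept (-0.15, adjusted p = 0.181), and the fast list then held 2 higher and 2 lower of 7.

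Of 12 leukocyte markers 4 fell and 0 rose (7 and 0 at an unadjusted p under 0.05), among them CD83 (-0.50 ± 0.04, adjusted p = 0.00877), JCHAIN (-0.73 ± 0.29, 0.0254) and LCP1 (-0.25 ± 0.10, 0.0472), with array medians of the list between -0.44 and -0.23. The list held 2 lower calls with robust moderation and 2 with values on at least 3 arrays, and LCP1 was called under neither (0.051 and 0.063) nor after quantile normalization (0.0511). Of 19 fibroblast and matrix genes 2 rose and 3 fell by limma (3 and 6 at an unadjusted p under 0.05), with array medians between -0.19 and 0.02. POSTN rose, at 0.57 ± 0.04, while COL6A1 (-0.34 ± 0.04, adjusted p = 0.0139) and OGN (-0.46 ± 0.11, 0.0146) fell. When centred on the steadiest features, 1 of the 19 was called higher and 7 lower. Of 4 adipocyte markers 2 rose with the array median at 0. FABP4 stood at 0.79 ± 0.06 (adjusted p = 0.00712) and LPL at 0.26 ± 0.08 (0.0328, and -0.19 as deposited), while ADIPOQ, made by adipocytes, stood at -0.05 ± 0.07 (0.532).

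Of 9 endothelial and mural genes 0 rose and 1 fell by limma (0 and 2 at an unadjusted p under 0.05), the smooth muscle actin gene ACTA2 (-0.36 ± 0.09, adjusted p = 0.0195). CLDN5 stood at -0.28 ± 0.23 (0.131) and ANGPT2 at 0.34 ± 0.44 (0.271). Of 4 nerve and Schwann cell markers limma called 0, also at an unadjusted p under 0.05, with CHAT, NEFM and MBP at 0.35 ± 0.90, -0.25 ± 1.06 and -0.03 ± 0.11. Of 4 erythroid genes 1 rose, the alpha globin gene HBA1 (0.43 ± 0.02, adjusted p = 0.00892, but -0.01 as deposited, and 0.35 with adjusted p = 0.104 with values on at least 3 arrays), while HBE1 (-0.39 ± 0.32, 0.123) and HBZ (-0.80 ± 0.91, 0.216) did not pass. The part of fibre type and of other cells in the ratios of VDAC1 and VDAC2 was not tested.

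Genes next to the channels in the chicken RefSeq order, looked up after the values were seen, showed no call. Of the 3 protein-coding genes on each side, 3 of 6 around VDAC1 were measured: SKP1 at 0.01 ± 0.20, TCF7 at -0.20 ± 0.71 and FSTL4 at -0.64 ± 1.43. Around VDAC2 it was 1 of 6, LOC423731 at 0.25 ± 0.17. By limma 0 of these 4 passed (adjusted p from 0.0952 to 0.926), against 24.6% of all genes called in either direction. With so few genes this is no result about the neighbours.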

How the data were processed

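The authors deposited a log2 ratio of Cy5 and Cy3 signal for 45220 features on each of 4 arrays. Image analysis, background correction, normalization and numerator: not given in the sources used here. Per the labels, Cy3 held low and Cy5 high efficiency RNA. Left out were values at the ceiling of 16.61 and 160 features that lay within 0.005 of 0 on 3 or more arrays. The latter pattern, chosen after the values were seen, is read as saturation in both dyes. The platform table named 4391 features (0 with several symbols), and 410 symbols were updated by a unique synonym in RefSeq (GRCg7b names only). Listed genes were matched under either symbol, which added CKMT1B to its list after the values were seen.

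Each array was centred on its median and features of a gene were averaged. Mean ratios were tested against 0 with limma 3.58.1 (R 4.3.3, lmFit with an intercept, eBayes), two-sided, with Benjamini-Hochberg adjustment over 3494 genes. The fit was also run on simulated data in which unchanged genes centred on 0. That run cannot test the choice of zero point or effects shared by an array. P-values measure the spread between these 4 arrays, which is one between birds only if RNA was not pooled, and leave out any dye effect. Members and lists were chosen with earlier results of these data known. Genes were named by rule: the 3 channels, the 3 or 4 smallest p per list, and the 5 genes most like each channel. Other genes named were chosen after their values were seen. Alternatives were other zero points, scaling, quantile normalization, feature medians, values on at least 3 arrays, ratio-1 features kept, robust moderation, platform symbols and leaving out each array.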

Additional observations from a re-analysis of the deposited data

Results flagged for a closer look

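Among 68 values examined, 3 had an array far from the other 3, where chance gives about 1 in 20. COX7A2L was highest on array 3 at 0.65, against 0.54 to 0.55 on the others. TNNT3 was lowest on array 3 at 0.31, against 0.44 to 0.46. LCP1 was lowest on array 1 at -0.41, against -0.21 to -0.18. VDAC1, VDAC2 and the difference between them were not among the 3.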

How the results depend on the processing

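Each array gives a ratio between high and low efficiency RNA, likely high over low. The test of this single group of ratios against 0 was therefore already paired by array, and no other paired analysis was run. VDAC1 and VDAC2 stayed positive under every alternative run, at 0.58 to 0.63 and 0.58 to 0.60 without single arrays, and moved only with the zero point: 0.17 and 0.15 as deposited, 0.45 and 0.43 when centred on the steadiest features. VDAC2 minus VDAC1 moved by less than its SD over the 4 arrays in each alternative, and ran from -0.035 to 0.0013 without single arrays. As deposited, 9 genes were higher and 1142 lower, and when centred on the steadiest features, 241 and 414. Without single arrays there were 0 to 299 higher and 4 to 105 lower. List medians as deposited and then when centred on the steadiest features were -0.45 and -0.17 (VDAC3 and import), -0.26 and 0.023 (partners), -0.18 and 0.10 (BCL2 family), -0.40 and -0.12 (fusion, fission, mitophagy), -0.49 and -0.21 (outer membrane enzymes), -0.28 and 0.00 (carriers), -0.48 and -0.20 (biogenesis), and -0.18 and 0.10 (respiratory chain). Without single arrays the fusion list ran from -0.024 to 0.056, the enzymes from -0.19 to -0.026 and the respiratory chain from 0.28 to 0.31. As deposited these called genes turned negative: HSPA9 (-0.24), SLC25A6 (-0.26), BCL2L1 (-0.12), BNIP3 (-0.093), BCL2 (-0.10), SLC25A3 (-0.071), TFAM (-0.029), TFB2M (-0.039), TNNT3 (-0.027), LPL (-0.19) and HBA1 (-0.0073). That follows from the construction, since this alternative lowers every gene by the same amount. Signal over background could not be read from ratios.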
